A study of Mus musculus with 8 samples.

Results

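Intracisternal A-particle (IAP) elements are endogenous retroviruses of the mouse, and their accessibility was described here in lung fibroblasts with and without cGAS. The members were the rows of the deposited count table whose repeat identifier gave the class LTR, the family ERVK and a subfamily name starting with IAP. There were 19128 such copies in 25 subfamilies, out of 2968871 retrotransposon copies and 4835895 regions in all. Names ending in -int or _I marked the internal part of the element, with 7369 copies in 10 subfamilies. The remaining 11759 copies, in 15 subfamilies, were long terminal repeats (LTRs).

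Accessibility was measured by ATAC-seq, in which a transposase cuts open chromatin and the cut ends are sequenced and counted. The cells were primary lung fibroblasts, grown at 5% CO2 and 5% O2, of the genotypes cGAS KO (4 libraries) and WT (4 libraries), each with 2 libraries labelled female and 2 labelled male. cGAS is a sensor of cytosolic DNA that signals through STING. Libraries are named by genotype, sex label and number, such as KO F1. Strain, age and the knockout allele were not given in the sources used here, and nothing there says that libraries of a genotype came from separate animals, so p-values measure the spread between these libraries, which may be technical. The fibroblast label and the targeted gene were not checked against the data, because no gene annotation of the build (GRCm39) was used.

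An intact IAP provirus has an internal part with the gag, pro and pol genes between a pair of identical LTRs, and the LTR carries the promoter that starts its transcription. Recombination between the LTRs of a provirus removes the internal part and leaves a solitary LTR. In most somatic mouse tissues IAP copies are held silent by DNA methylation and by H3K9 trimethylation, deposited by SETDB1, which TRIM28 (KAP1) brings to sites bound by KRAB zinc finger proteins. Because many IAP copies are young and nearly identical, short reads are hard to place on single copies, so counts were also summed over subfamilies.

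Table totals were 62.7, 59.0, 72.9 and 43.2 M counts (M, units of 1000000) in KO libraries F1, F2, M1 and M2, against 54.1, 63.3, 66.4 and 70.5 M in WT libraries F1, F2, M1 and M2. The share of these counts in the 185268 open chromatin regions (OCRs, the peaks of the table) was 69.9%, 69.6%, 75.8% and 64.6% in the KO libraries, in that order, and 65.1%, 70.8%, 76.4% and 74.5% in the WT libraries. KO M2 was the shallowest library and had the lowest share in OCRs. Of the IAP copies, 3711 (19.4%) lay on chromosome Y, and they gave a check of the sex labels. The density of internal counts on Y, in percent of the autosomal density, was 6.07, 25.4, 37.6 and 38.3 in KO libraries F1, F2, M1 and M2, against 5.85, 5.58, 32.2 and 41.0 in WT libraries F1, F2, M1 and M2. The library labelled KO F2 therefore stood apart from the other 3 libraries labelled female, and its LTR value of 22.2% likewise lay near the 24.8% to 36.3% of the libraries labelled male, against 4.61% to 5.49% in the other libraries labelled female. The sex label was a covariate in the main model for subfamilies, copies and OCRs. Values without KO F2 are given for the numbers called, the median over IAP subfamilies, the sex interaction and IAPLTR3.

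**Figure D1:**
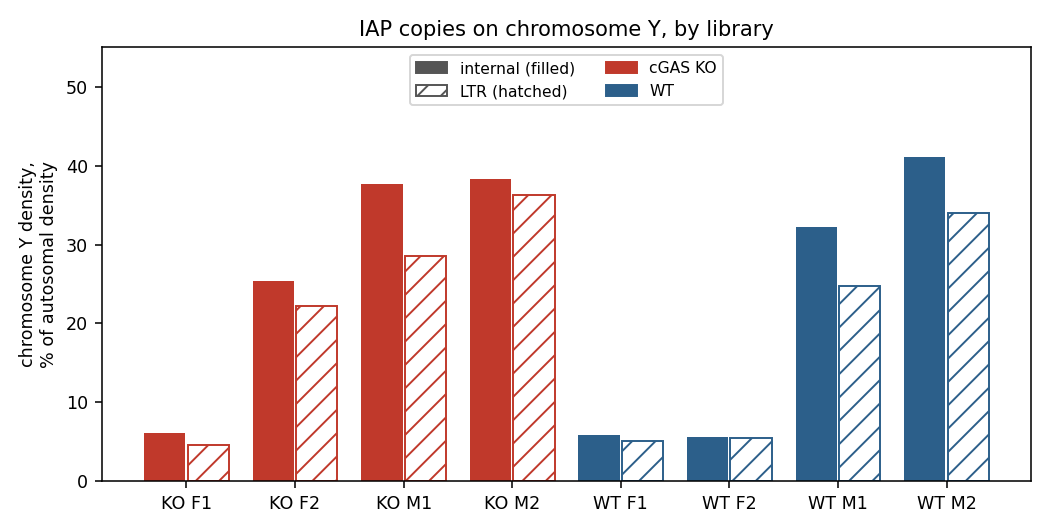
Density of IAP counts on chromosome Y as a percentage of the autosomal IAP density in each library, for internal parts (filled bars) and LTRs (hatched bars), with the KO libraries in red and the WT libraries in blue. The 3 libraries KO F1, WT F1 and WT F2 sit between 4.61% and 6.07%, and the other libraries, among them KO F2, lie between 22.2% and 41.0%.

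IAP copies held a small part of the retrotransposon counts. They held 0.217% to 0.564% of a library's counts, and 1.04% to 1.83% of its retrotransposon counts. Internal parts made up 80.6% of the IAP bases and 74.0% of the IAP counts. A copy had a median of 3.75 counts per library, 12.1 for internal parts of a median length of 1859 bases and 3.13 for LTRs of a median length of 348 bases, and 132 copies had none, 99 of them on Y. At this depth a single copy is measured with large counting error: 46.9% of the internal copies and 93.6% of the LTR copies averaged under 10 counts.

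Per kb, IAP copies had a lower count density than the other members of their family. The handling of reads that match several copies was not stated, and its part in this difference was not tested. Their count density averaged 0.159 ± 0.0582 CPM per kb (CPM, counts per 1000000 of the library's table total) in KO libraries and 0.136 ± 0.0399 in WT libraries, while the 281717 other ERVK copies averaged 0.224 ± 0.0393 in KO libraries and 0.208 ± 0.0427 in WT libraries (SD, n = 4 each). The ratio was 0.714, 0.674, 0.515 and 0.860 in the KO libraries (F1, F2, M1, M2) and 0.717, 0.643, 0.577 and 0.638 in the WT libraries. It was below 1 in 8 of 8 libraries, a mean log2 ratio of -0.60 (exact sign-flip permutation test, two-sided, p = 0.00781, the smallest the test can give; adjusted p over 6 tests 0.0156). The mean log2 ratio was nearer 0 over copies outside OCRs, at -0.45, and without chromosome Y, at -0.41, the latter an alternative chosen after seeing the data. Of the IAP copies 1.495% overlapped an OCR, against 3.44% of other ERVK copies and 4.20% of all retrotransposon copies. The OCRs were peaks of the same libraries, so this is another view of the same counts, and overlap also depends on copy length.

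LTRs were denser in counts than internal parts in every library. The LTR density was 0.195, 0.212, 0.133 and 0.283 CPM per kb in KO libraries F1, F2, M1 and M2, and 0.226, 0.199, 0.157 and 0.156 in WT libraries F1, F2, M1 and M2. Internal parts had 0.153, 0.139, 0.0785 and 0.219 CPM per kb in the KO libraries and 0.181, 0.124, 0.0821 and 0.108 in the WT libraries, in the same order. The LTR level thus exceeded the internal level by 1.25 to 1.91 times, 1.48-fold over the mean log2 ratio of 0.57 (exact sign-flip test, two-sided, p = 0.00781; adjusted p = 0.0156). The KO and WT libraries overlapped in this ratio, and KO M1 and WT M1 had the highest values of their genotypes. The ratio was smaller, at a log2 of 0.37, when copies in OCRs were left out.

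A single subfamily stood far above the rest. IAPEY4_LTR, the LTR of the IAPEY4 element, had 2.58, 3.48, 3.43 and 3.63 CPM per kb in KO libraries F1, F2, M1 and M2, and 2.79, 3.66, 4.01 and 3.19 in WT libraries F1, F2, M1 and M2. The genotypes overlapped, and no library was under 2.58. The other IAP LTRs as a whole had 0.111 to 0.261 CPM per kb in KO libraries and 0.131 to 0.209 in WT libraries, so that IAPEY4_LTR was 13.3 to 30.8 times as dense in the 8 libraries. With 206 counts per kb it ranked 1 of the 831 retrotransposon subfamilies with at least 100 counts per library, and it ranked 1 in each library on its own. The next was LTR86B2, an ERVL subfamily of 18 copies with 138 counts per kb. The next ERVK subfamily, RLTR19B, had 55.4, and the median of the 831 subfamilies was 16.1. These 82 copies, of 30882 bases in all, held 8.06% to 16.8% of the IAP LTR counts.

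**Figure D2:**
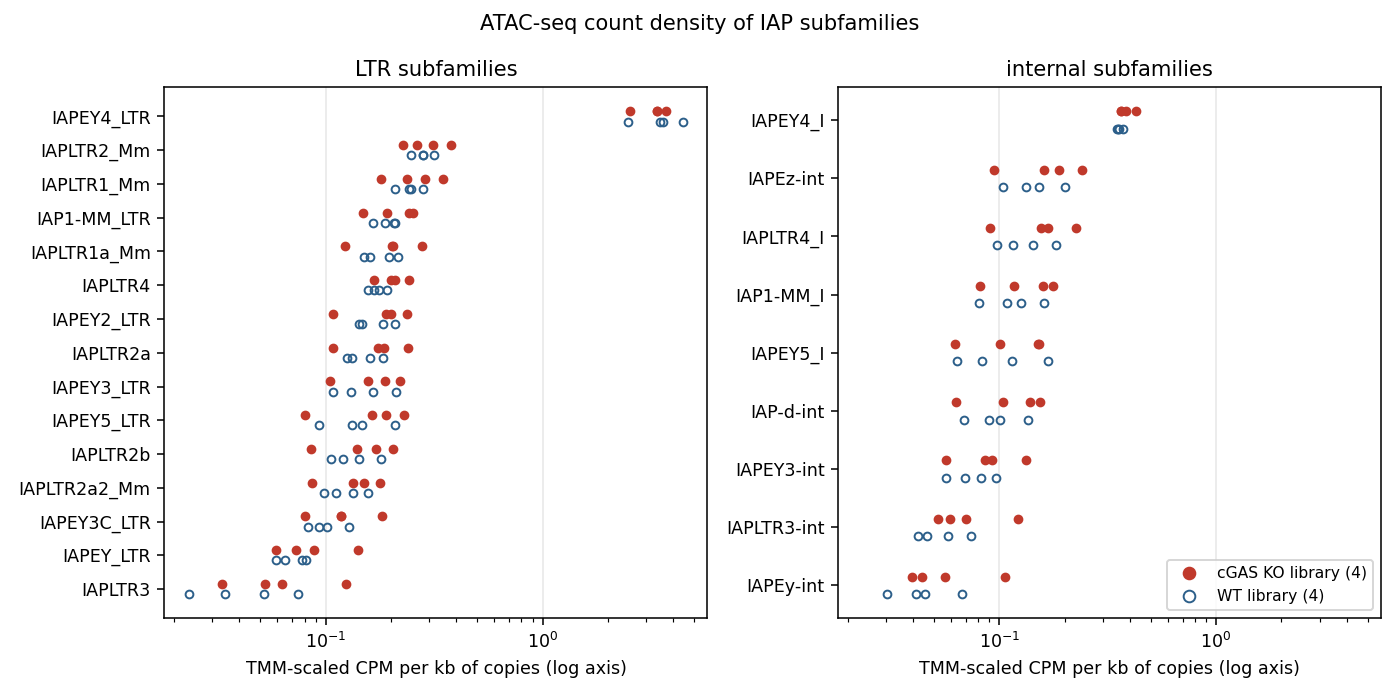
Count density of each tested IAP subfamily in each library, as TMM-scaled CPM per kb of copies on a log axis, for LTR subfamilies (left) and internal subfamilies (right), with filled red points for cGAS KO libraries above open blue points for WT libraries. IAPEY4_LTR lies far to the right of the next LTR subfamily, IAPEY4_I is the densest internal subfamily, and KO and WT points overlap throughout.

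As counted, the high density of IAPEY4_LTR was shared by nearly all of its copies. The handling of reads that match several copies was not stated, and its part in this spread over copies was not tested. Of the 82 copies, 77 (93.9%) overlapped an OCR, against 127 of the 11677 other IAP LTR copies (1.09%). The OCRs were peaks of the same libraries, so this overlap is another view of the same counts. The median copy had 164 counts per kb, with a range of 7.25 to 671, against a median of 8.36 over the other LTR copies, and 79 of the 82 copies exceeded the 95th percentile of the others (22.3 counts per kb). The copies were uniform in length, since 48 were exactly 326 bases long and 15 rows of 2 segments, with 615 to 654 bases, had the length of a joined pair of LTRs. The median density was 156 counts per kb in the 61 rows of 322 to 339 bases, 268 in the 15 joined pairs and 16.6 in the 5 copies of 69 to 287 bases. The copies lay on 19 chromosomes, with none on Y. The 34 IAPEY4_LTR copies next to an internal part had a median of 241 counts per kb and the 48 solitary ones 126, and 33 and 44 of them overlapped an OCR. The former were rows of 324 to 654 bases and the latter of 69 to 339. All joined pairs were thus among the former and all 5 short copies among the latter, so this contrast is mixed with row type.

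**Figure D3:**
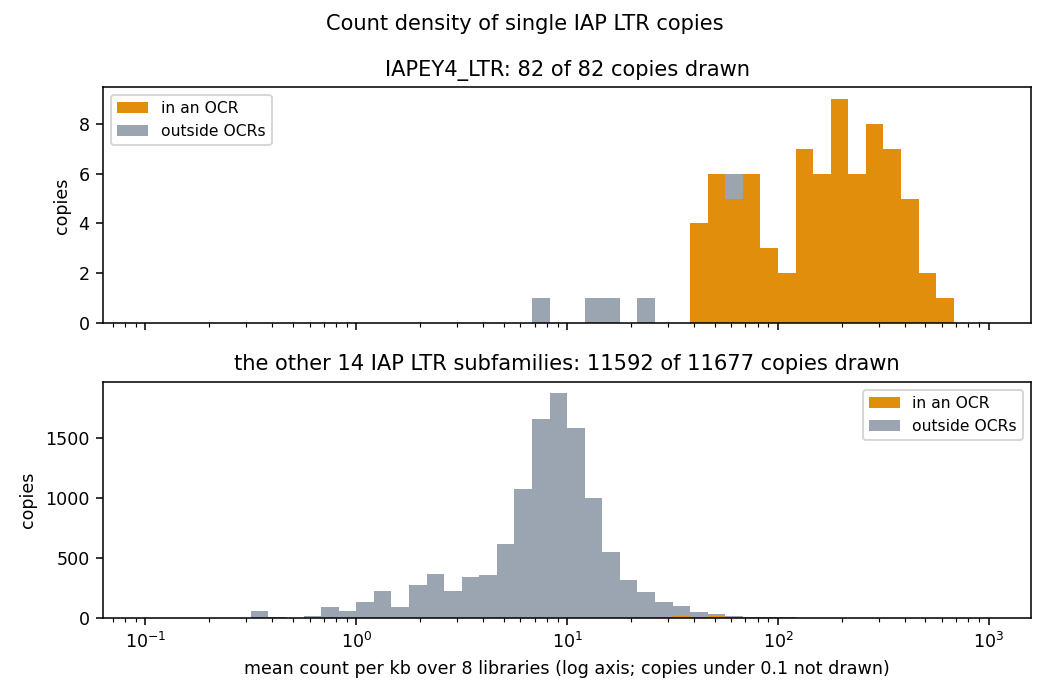
Numbers of single IAP LTR copies by their mean count per kb over the 8 libraries (log axis), for IAPEY4_LTR (top) and the other IAP LTR subfamilies (bottom), stacked by overlap with an OCR. The IAPEY4_LTR copies centre on 164 counts per kb and 77 of 82 are in an OCR, whereas the others centre on 8.36 and their 127 copies in OCRs are too few to see at this scale.

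The densest single copies illustrate this. The IAPEY4_LTR copy at chr16:90146435-90146760 (GRCm39, 326 bases) had 671 counts per kb. Its TMM-scaled levels were 3.01, 3.54, 3.94 and 3.37 CPM in KO libraries F1, F2, M1 and M2, against 2.53, 3.83, 4.86 and 3.51 CPM in WT libraries F1, F2, M1 and M2. The groups overlapped, and the fold of KO over WT was 0.950 (95% interval 0.679 to 1.33; edgeR, adjusted p = 1). A joined LTR pair of IAPEY4 on chromosome 19, between 9806212 and 9814528, had 539 counts per kb. Its level averaged 5.41 ± 0.694 CPM in KO libraries and 6.11 ± 1.56 CPM in WT libraries (SD, n = 4 each). Between these 2 came an LTR of another subfamily, the solitary IAPLTR2_Mm copy at chr17:34200243-34200672, with 624 counts per kb. It averaged 4.45 ± 0.467 CPM in KO libraries and 4.31 ± 0.762 CPM in WT libraries. Of the 78 IAP LTR copies of at least 300 bases with over 100 counts per kb, 53 were IAPEY4_LTR, 13 IAPLTR2_Mm, 6 IAPLTR1_Mm, 4 IAPLTR4, 1 IAPLTR1a_Mm and 1 IAPLTR2a.

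The internal part of IAPEY4 was the densest internal subfamily, by a smaller margin. IAPEY4_I had 0.370, 0.397, 0.336 and 0.460 CPM per kb in KO libraries F1, F2, M1 and M2, and 0.419, 0.363, 0.315 and 0.325 in WT libraries F1, F2, M1 and M2. That was 2.16 to 4.61 times the density of the other internal parts in the 8 libraries, and it ranked 241 of 831. Most of its counts lay in the long copies. Those of at least 5 kb held 5.58% of all IAP internal counts. Copies of 1 to 5 kb held 0.257% and those under 1 kb 0.265%. The 45 copies of at least 5 kb had a median of 19.2 counts per kb (5.19 to 65.1), and 28 of them overlapped an OCR. A further 286 of the 402 copies were exactly 123 bases long, and these had a median of 5.59 counts per kb and none overlapped an OCR. The densest tested IAPEY4_I copy of at least 300 bases, on X, was 974 bases long, with 111 counts per kb. How much of the signal in the long copies lay next to their LTRs was not tested.

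The most abundant internal subfamily was IAPEz-int, the internal part of the common IAP elements, with 3051 copies, 60.4% of the internal bases and 72.5% of the internal counts. Its density was 0.176 ± 0.0715 CPM per kb in KO libraries and 0.150 ± 0.0577 in WT libraries (SD, n = 4 each), and 30 copies (0.983%) overlapped an OCR. In density IAPEz-int ranked 716 of 831, below IAPEY4_I at 241 and above the other tested internal subfamilies, at 734 to 829. Its long and shorter copies had similar values: the 999 copies of at least 5 kb averaged 0.172 ± 0.0723 CPM per kb in KO libraries and 0.145 ± 0.0609 in WT libraries, and the 1864 copies of 1 to 5 kb averaged 0.182 ± 0.0710 and 0.156 ± 0.0541 (SD, n = 4 each). Of the 24 IAP subfamilies tested, 21 lay below the median density of the 831 subfamilies.

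The subfamilies at the low end were those with the most copies on chromosome Y. IAPEy-int ranked 829, IAPLTR3 828 and IAPLTR3-int 825 of 831 over all copies and libraries, 3 of which had little Y signal. Over autosomal copies alone, an alternative chosen after seeing the data, they ranked 799, 737 and 743 of 830 subfamilies. Of IAPLTR3, 776 of 935 copies were on Y, and of IAPLTR3-int, 765 of 1039. The 230 IAPEy-int copies of at least 5 kb, 208 of them on Y, had 0.0475 ± 0.0347 CPM per kb in KO libraries and 0.0291 ± 0.0187 in WT libraries. The 22 of them on other chromosomes averaged 0.107 over the 8 libraries. Y is a single copy in male cells while autosomes come in pairs, and in the libraries labelled male internal parts on X, also a single copy there, had 73.01% to 77.0% of the autosomal density. How much of the Y values follows from copy number was not tested.

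LTRs next to an internal part were slightly less dense than solitary LTRs, but this depended on which copies were counted. With a gap of at most 50 bases counted as adjacent, 6842 LTRs were proviral, and 4795 had no internal part within 1000 bases. Proviral LTRs had 0.185, 0.206, 0.124 and 0.280 CPM per kb in KO libraries F1, F2, M1 and M2, against 0.216, 0.226, 0.151 and 0.291 for solitary LTRs. In WT libraries F1, F2, M1 and M2 the proviral LTRs had 0.214, 0.190, 0.149 and 0.150 CPM per kb, against 0.250, 0.217, 0.173 and 0.169. The ratio was below 1 in 8 of 8 libraries, a mean log2 ratio of -0.19 (exact sign-flip test, two-sided, p = 0.00781; adjusted p = 0.0156). The ratio lost its support outside OCRs (log2 -0.02, p = 0.367, exact) and without chromosome Y (log2 -0.03, p = 0.164, exact). Of the proviral LTRs 1.18% overlapped an OCR, and of the solitary LTRs 2.57%, a difference that was not tested. It did not hold within IAPEY4_LTR, with 33 of 34 and 44 of 48. Within IAPEY4_LTR the copies next to an internal part also had the higher median density, as described above.

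The IAP measures varied widely between libraries of a genotype. The IAP share of retrotransposon counts was highest in KO M2 and lowest in KO M1, and it was lower in libraries with a larger share of counts in OCRs. Across the 8 libraries Pearson's r was -0.91 (permutation p = 0.000744) and Spearman's rho -0.95 (permutation p = 0.00114), with r -0.99 within KO and -0.96 within WT. The density of IAPEY4_LTR over that of the other IAP LTRs ran the other way, with r 0.93 (permutation p = 0.00198) and rho 0.93 (permutation p = 0.00223). The ratio of internal to LTR counts had r -0.82 (permutation p = 0.0148) and rho -0.79 (permutation p = 0.0279). Adjusted over these 3 relations, which were chosen after seeing the data, the p-values of r were 0.00223, 0.00298 and 0.0148. Without KO M2 and WT M1, the 2 libraries farthest from the median OCR share, r was -0.87, 0.90 and -0.71, the last with a permutation p of 0.106 over 6 libraries. Within KO and WT the third relation had r -0.80 and -0.83. IAP copies in OCRs count on both sides of these relations, and reads outside OCRs make up the rest of each library. Copies overlapping OCRs held 99.5% of the IAPEY4_LTR counts, against 8.94% of the other IAP LTR counts and 7.86% of the internal counts. Relations of these signs are thus in part built into the measures, and their p-values do not show a link beyond that.

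**Figure D4:**
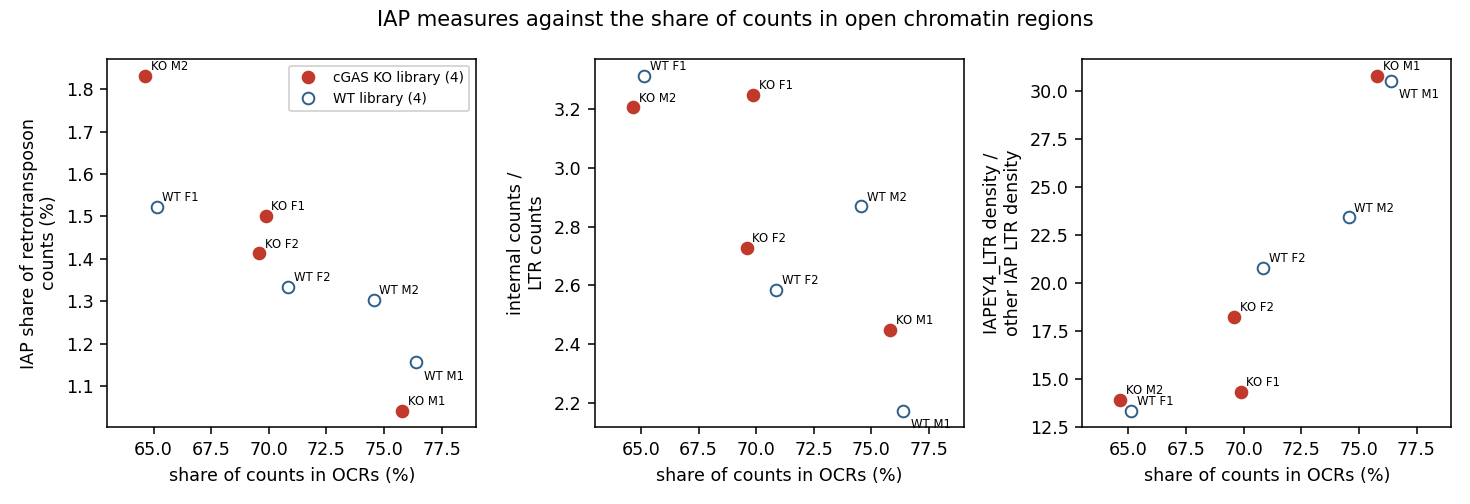
The IAP share, the ratio of internal to LTR counts and the IAPEY4_LTR ratio in each library against the percentage of the library's counts in OCRs, with filled red points for cGAS KO libraries and open blue points for WT libraries. The IAP share of retrotransposon counts is highest at the low end (1.83% in KO M2 at 64.6%) and the IAPEY4_LTR ratio is highest at the high end (30.8 in KO M1 at 75.8%), and the genotypes are intermixed.

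Between the genotypes, no IAP total differed beyond the spread of the libraries. IAP copies held 1.501%, 1.41%, 1.04% and 1.83% of retrotransposon counts in KO libraries F1, F2, M1 and M2, and 1.52%, 1.33%, 1.16% and 1.30% in WT libraries F1, F2, M1 and M2. The KO values spanned the WT values. The difference of KO minus WT was 0.118 percentage points (95% interval -0.479 to 0.676; exact permutation test over 70 assignments, two-sided, p = 0.571). It turned to -0.0102 without KO M2. Of ERVK counts, IAP copies held 12.6% ± 2.29 in KO libraries and 11.9% ± 0.932 in WT libraries (SD, n = 4 each), a difference of 0.721 points (-3.34 to 4.49; exact permutation p = 0.571). There were 3.25, 2.73, 2.45 and 3.21 internal counts per LTR count in the KO libraries and 3.31, 2.59, 2.17 and 2.87 in the WT libraries, a log2 difference of 0.10 (-0.44 to 0.58; exact permutation p = 0.571). The adjusted p over the 6 tests was 0.571 for each, and the smallest p that 4 against 4 libraries can give is 0.0286.

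No IAP subfamily passed the threshold between genotypes. At an adjusted p of 0.05 edgeR's quasi-likelihood test called 0 of the 24 IAP subfamilies. None of them had an unadjusted p under 0.05 either, though 5 did without KO M1, against 3.97% of all 831. The background was the same: over all 831 subfamilies 0.0% were called, and 1.81% had an unadjusted p under 0.05. DESeq2 and limma's voom also called 0 of the 24. No IAP subfamily had KO and WT libraries that did not overlap, against 1.32% of all 831. IAPA_MM-int, with under 100 counts per library, was not tested.

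Most estimates were above 0, though none passed the test. The log2 fold of KO over WT was above 0 for 23 of the 24 IAP subfamilies (9 of 9 internal and 14 of 15 LTR), with a median of 0.20, against 75.2% of all 831 subfamilies with a median of 0.06. Leaving out KO F2, whose sex label was in doubt, kept 23 of the 24 above 0, with a median of 0.30. This direction rested on KO M2 and changed with the model. Without KO M2, 6 of 24 were above 0 and the median was -0.10; in limma's voom with sample weights, 8 of 24 were above 0, against 59.4% of all 831, and the median was -0.04. Scaling moved the median over all subfamilies from 0.00 with factors from retrotransposons to 0.12 with factors from OCRs, and the IAP median from 0.12 to 0.31.

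**Figure D5:**
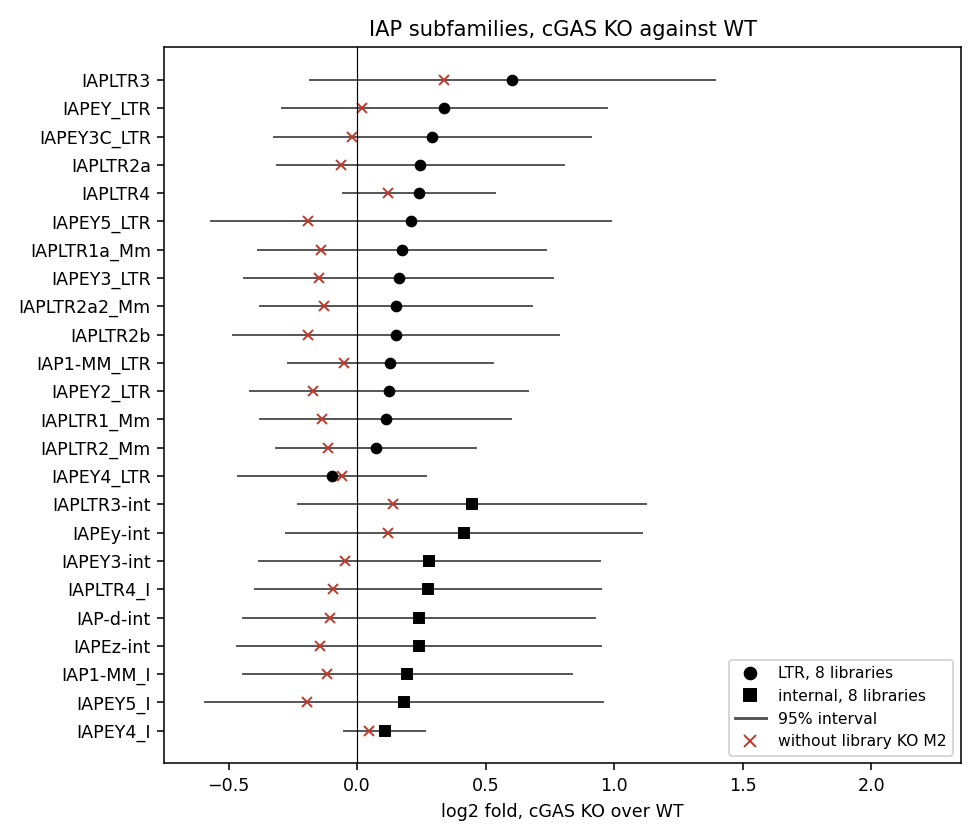
Log2 fold of cGAS KO over WT for the 24 tested IAP subfamilies, LTR subfamilies above internal ones, with points for the estimate from all 8 libraries, lines for its 95% interval and red crosses for the estimate without KO M2. Every interval crosses 0, and most crosses lie left of 0.

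IAPEz-int had 2230, 1908, 1120 and 2870 TMM-scaled CPM in KO libraries F1, F2, M1 and M2, and 2390, 1808, 1235 and 1584 CPM in WT libraries F1, F2, M1 and M2. KO M1 and WT M1 were the lowest of their genotypes and the groups overlapped, with a log2 fold of 0.24 (95% interval -0.47 to 0.95; edgeR, adjusted p = 0.869). IAPEY3-int averaged 186.7 ± 63.9 CPM in KO libraries and 154.2 ± 34.8 in WT libraries (SD, n = 4 each), a log2 fold of 0.28 (-0.38 to 0.94). Both estimates turned below 0 without KO M2.

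IAPEY4_I had the narrowest interval of the 24. It had 153.9, 162.1, 154.1 and 180.9 CPM in KO libraries F1, F2, M1 and M2, and 156.7, 150.9, 147.1 and 149.5 CPM in WT libraries F1, F2, M1 and M2. Its log2 fold was 0.11 (-0.05 to 0.26; edgeR, adjusted p = 0.869). A fold above 1.20 lay outside this interval, which is that of the main model alone. The log2 fold was 0.18 with scaling factors from OCRs (edgeR, unadjusted p = 0.407) and 0.16 over copies outside OCRs (unadjusted p = 0.465). With factors from retrotransposons it was 0.045 (edgeR, unadjusted p = 0.459). No interval is given for these settings, so a fold above 1.20 is not excluded under them. IAPEY4_LTR had 78.3, 103.7, 114.9 and 104.2 CPM in the KO libraries and 76.2, 111.1, 136.8 and 107.3 CPM in the WT libraries. It was the 1 subfamily with an estimate below 0, at -0.10 (-0.46 to 0.27; edgeR, adjusted p = 0.869), and F1 was the lowest library in each genotype.

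Among the other frequent LTRs, IAPLTR2_Mm averaged 156.3 ± 33.9 CPM in KO libraries and 148.7 ± 15.3 in WT libraries, IAPLTR1_Mm averaged 131.0 ± 35.9 and 121.8 ± 15.1, and IAPLTR1a_Mm averaged 131.3 ± 40.9 and 117.4 ± 19.7 (SD, n = 4 each). These are the LTRs found around IAPEz-int, and their log2 folds were 0.07, 0.11 and 0.17, with each interval across 0. IAPLTR4 had the lowest p of the 24, with 44.8, 42.9, 35.7 and 51.8 CPM in KO libraries F1, F2, M1 and M2, and 41.2, 33.5, 36.0 and 37.6 CPM in WT libraries F1, F2, M1 and M2. Its log2 fold was 0.24 (-0.06 to 0.54; edgeR, unadjusted p = 0.0975, adjusted p = 0.869).

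IAPLTR3 had the largest estimate, and most of its copies were on Y. It had 10.7, 20.2, 16.8 and 39.8 CPM in KO libraries F1, F2, M1 and M2, and 11.01, 7.53, 16.7 and 24.0 CPM in WT libraries F1, F2, M1 and M2. KO F2 and the libraries labelled male were high. The log2 fold was 0.60 (-0.18 to 1.39; edgeR, adjusted p = 0.869), and it was 0.37 without KO F2, 0.34 without KO M2 and 0.26 over autosomal copies alone. IAPLTR3-int and IAPEy-int, with log2 folds of 0.45 and 0.42, had 0.29 and 0.18 over autosomal copies.

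The genotype effect did not differ detectably between the sex labels. The interaction had an adjusted p of at least 0.854 in edgeR over all 831 subfamilies, the 24 of IAP included. Neither edgeR nor DESeq2 gave one of them an unadjusted p under 0.05, and the share of all 831 subfamilies below it was 0.0% in each. Without KO F2, which stood apart from its sex label, edgeR again called 0. Single libraries moved the estimates: the median log2 interaction (genotype effect in male-labelled minus female-labelled libraries) over the 24 was 0.35 with all libraries, 0.81 without KO M1 and -0.31 without KO M2. Without KO M1, 16 of the 24 had an unadjusted p under 0.05 in edgeR, against 25.4% of all 831 subfamilies, and the lowest adjusted p was 0.149. With 2 libraries per cell of this design and a sex label in doubt, the test has little reach.

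No single IAP copy passed the threshold. The count filter kept 6541 of the 19128 IAP copies, 4553 of 7369 internal and 1988 of 11759 LTR copies. At an adjusted p of 0.05 edgeR called 0 of them and 0.0% of all copies, and 220 were under an unadjusted p of 0.05, which is 3.36% against 3.54% of all 570571 copies tested. Of the 220, 202 were higher in KO and 18 lower, where 2.59% of all copies were under it and higher and 0.952% lower. The number under an unadjusted p of 0.05 was 560 without KO M1 (8.56%, against 4.15% of all copies), and 148, 132 and 141 without KO M2, WT F2 and WT M1. The direction also rested on KO M2: without it 43 of the 148 were higher in KO, against 9925 of 18471 over all copies. DESeq2 called 0 IAP copies, with an adjusted p given for 1779 of them, against 0.0829% of the 50653 copies of any kind that had one. The log2 fold was above 0 in 74.0% of the tested IAP copies, with a median of 0.22, and in 56.7% of all tested copies, with a median of 0.07. Without KO M2 these shares were 38.9% and 47.8%. Of the 78 tested IAPEY4_LTR copies, 19 were above 0 and 59 below, and none had an unadjusted p under 0.05 in edgeR.

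KO and WT libraries did not overlap in 69 of the 6541 tested IAP copies (1.05%). The share over all copies was not counted, so this share cannot be called high or low. The copies with the lowest p among those higher in KO were a pair of IAPLTR3-int copies that lie in OCRs and an IAPLTR4 LTR. They were picked by their p, so a lack of overlap in them adds no further evidence. The IAPLTR3-int copy on chromosome 11, between 3055108 and 3060959, had 2.18, 2.59, 1.74 and 3.92 CPM in KO libraries F1, F2, M1 and M2, and 1.19, 1.52, 1.17 and 0.819 CPM in WT libraries F1, F2, M1 and M2. The groups did not overlap, and the fold was 2.23 (95% interval 1.46 to 3.39; edgeR, adjusted p = 0.886; DESeq2, adjusted p = 0.118). The IAPLTR3-int copy on chromosome 1, between 101829418 and 101830407, had 1.10, 1.09, 0.722 and 1.43 CPM in the KO libraries and 0.612, 0.473, 0.391 and 0.270 CPM in the WT libraries. The groups did not overlap, and the fold was 2.48 (1.52 to 4.03; edgeR, adjusted p = 0.902; DESeq2, adjusted p = 0.108). The IAPLTR4 copy on chromosome 19, between 7996698 and 8011500, averaged 0.415 ± 0.149 CPM in KO libraries and 0.144 ± 0.0307 in WT libraries (SD, n = 4 each), from a mean of 16.5 counts per library.

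The copies with the lowest p among those lower in KO were LTRs with few counts. The IAPLTR2_Mm copy at chr12:90531309-90531786 had 0.0471, 0.0981, 0.164 and 0.150 CPM in KO libraries F1, F2, M1 and M2, and 0.163, 0.140, 0.515 and 0.525 CPM in WT libraries F1, F2, M1 and M2, from a mean of 13.9 counts. WT M1 and WT M2 were high and the other libraries overlapped. An IAPLTR1_Mm copy on chromosome 15, between 23240469 and 23247550, was at 0 in KO M1 and KO M2 and had a mean of 5.75 counts. An IAPLTR1_Mm copy on chromosome 4, between 111691036 and 111696127, averaged 0.128 ± 0.0489 CPM in KO libraries and 0.283 ± 0.0345 in WT libraries (SD, n = 4 each). The adjusted p of each of these 3 was 1 in edgeR.

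The densest tested internal copies did not pass the test either (edgeR, adjusted p = 1 for each). The IAP1-MM_I copy on chromosome 13, between 111624444 and 111626381, had 124 counts per kb and averaged 1.11 ± 0.0976 CPM in KO libraries and 1.03 ± 0.176 in WT libraries (SD, n = 4 each). The IAPLTR4_I copy on chromosome 11, between 116280231 and 116285535, had 112 counts per kb, with 1.55 ± 0.279 CPM in KO libraries and 1.31 ± 0.334 in WT libraries. The IAPEY4_I copy at chrX:122013811-122014784 had 111 counts per kb, with 1.65 ± 0.500 CPM in KO libraries and 1.84 ± 0.306 in WT libraries. Each overlapped an OCR, and a read end in both the copy and the OCR was split between them.

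OCRs that overlap IAP copies numbered 296, or 0.160% of all OCRs, and in 206 of them IAP copies covered no less of the length than other sequence did. IAPEY4_LTR was found in 91 of them (30.7%), IAPEY4_I in 68, IAPLTR2_Mm in 46, IAPEz-int in 30 and IAPLTR1_Mm in 22. Their median length was 524.5 bases, against 519 over all OCRs, and their median count was 56.0 per library, against 101.9. They were thus of ordinary length and had fewer counts than the typical OCR. A read end in both an OCR and a repeat copy was divided between them. How much of the lower count follows from this was not tested. The CPM of OCRs below are per library total over OCRs, with TMM over OCRs.

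Between genotypes edgeR called 0 of the 296 at an adjusted p of 0.05, and 0.0% of all 185268 OCRs. There were 16 with an unadjusted p under 0.05 (15 higher in KO and 1 lower), which is 5.41% against 9.88% of all OCRs (6.42% higher in KO and 3.45% lower). Without WT F1 there were 28, or 9.46% against 12.3% of all OCRs. DESeq2, an alternative, called 4 of the 261 IAP-overlapping OCRs for which it gave an adjusted p, all higher in KO. That is 1.53%, against 1.46% of all OCRs and 1.23% called higher in KO, so it is near the background. The median log2 fold was 0.04 over the 296, against 0.00 over all OCRs. KO and WT libraries did not overlap in 8 of the 296 (2.70%). The share over all OCRs was not counted, so this share cannot be called high or low. Where OCRs below were picked by their p, a lack of overlap adds no further evidence. None of the 91 OCRs with IAPEY4_LTR had an unadjusted p under 0.05 in edgeR, and their median log2 fold was -0.02.

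The OCR at chr11:3055263-3055918 lies within the IAPLTR3-int copy named above, which covers 79.7% of it. It had 3.49, 4.78, 2.31 and 7.73 CPM in KO libraries F1, F2, M1 and M2, and 1.48, 2.13, 1.27 and 0.673 CPM in WT libraries F1, F2, M1 and M2. Every KO library was above every WT library, and the fold was 3.41 (95% interval 1.75 to 6.65; edgeR, adjusted p = 0.323; DESeq2, adjusted p = 0.0123). The OCR at chr6:41540095-41541006, covered over 34.1% by an IAPLTR2_Mm LTR, had 8.08, 5.11, 5.64 and 5.31 CPM in the KO libraries and 3.75, 3.92, 2.70 and 3.25 CPM in the WT libraries. The groups did not overlap, and the fold was 1.78 (1.31 to 2.41; edgeR, adjusted p = 0.323; DESeq2, adjusted p = 0.0160).

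The OCR at chr10:51406930-51407306 touches an IAPEY5_LTR copy over 6.63% of its length, so it is an IAP region in small part. It averaged 1.15 ± 0.625 CPM in KO libraries and 0.278 ± 0.0537 in WT libraries (SD, n = 4 each), a fold of 4.11 (2.00 to 8.43; edgeR, adjusted p = 0.323; DESeq2, adjusted p = 0.0205). The fourth OCR that DESeq2 called, at chr1:101829696-101830806, is named after its values were seen. It overlaps the IAPLTR3-int copy on chromosome 1 described above and an IAPLTR4 copy. It had 2.39, 2.62, 1.23 and 3.35 CPM in KO libraries F1, F2, M1 and M2, and 1.68, 1.00, 0.577 and 0.452 CPM in WT libraries F1, F2, M1 and M2. WT F1 lay above KO M1, and the fold was 2.81 (1.49 to 5.28; edgeR, adjusted p = 0.323; DESeq2, adjusted p = 0.0383).

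Among OCRs lower in KO, the lowest p belonged to chr13:97989813-97990561, of which an IAPLTR1_Mm copy covers 2.80%. It had 10.4, 5.40, 9.22 and 3.86 CPM in KO libraries F1, F2, M1 and M2, and 11.3, 8.96, 14.3 and 18.7 CPM in WT libraries F1, F2, M1 and M2. KO F1 and KO M1 lay within the WT range, and the fold was 0.558 (0.341 to 0.915; edgeR, adjusted p = 0.412). The OCRs at chr16:15012782-15014231 and chr2:137881917-137883054, each with an IAPLTR1_Mm copy over 14.8% and 25.7% of its length, had folds of 0.821 and 0.766, and both intervals reached 1.02. The OCRs with the most counts were chr13:111625939-111627332, with 41.6 ± 4.17 CPM in KO libraries and 37.6 ± 2.79 in WT libraries, chr3:96395426-96396833, with 31.3 ± 7.58 and 27.7 ± 6.66, and chr17:34199776-34200693, with 25.5 ± 2.25 and 24.2 ± 0.851 (SD, n = 4 each). Their folds were 1.11, 1.13 and 1.05, with each interval across 1.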

How the data were processed

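The authors processed the ATAC-seq reads of the 8 libraries on GRCm39 with featureCounts, Bowtie2, MACS2, Picard, SAMtools, bedtools and Trim Galore, per the submitters' processing notes. Per the file headers, the deposited values are estimated counts, made by featureCounts 2.0.3 over peaks and repeats at once. A read was cut to its 5' end, and where that end fell in several regions the count was divided equally among them, so that an IAP copy inside an OCR shares its counts with it. How reads with several equal matches were placed was not stated. The rows gave no strand, so LTRs were matched to internal parts by distance alone.

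Counts were rounded for the count models. The main test was edgeR 4.0.16 (R 4.3.3, robust quasi-likelihood) with the sex label as covariate, fitted over all 831 subfamilies with a mean of at least 100 counts, all 570571 copies kept by filterByExpr or all 185268 OCRs. Library sizes were table totals with TMM factors over OCRs and kept copies (for OCRs, OCR totals with TMM over OCRs), and adjustment was by Benjamini-Hochberg over each whole table. DESeq2 1.42.0 and limma 3.58.1 were alternatives. Densities use table totals without TMM, and ratios were tested by exact permutation or sign flips (numpy 2.4.6). Interval bounds for shares come from inverting that test at 95%. The tests were checked on simulated data.

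Named features followed a rule: the 3 internal and 4 LTR subfamilies with the most counts and the 2 of lowest p each way; the 3 copies of lowest p each way and the 3 densest of each part, of at least 300 bases; and the 3 OCRs of lowest p each way and the 3 with the most counts. The members, lists and rules were chosen with earlier results of these data known. Gene lists, cell type markers and sequences were not analysed here because the reference tables were of another build.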

Additional observations from a re-analysis of the deposited data

Results flagged for a closer look

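Of 74 groups of 4 libraries checked (the named features and the IAP totals in each genotype), 1 had a library set far apart from the rest by Dixon's criterion at 95%, where chance flags about 1 in 20. The OCR at chr17:34199776-34200693, which holds the solitary IAPLTR2_Mm copy described above, had 28.8 CPM in KO F1, against 24.0 to 24.7 CPM in the other KO libraries.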

How the results depend on the processing

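The number of IAP subfamilies, IAP copies and interactions called stayed 0 under every alternative run (where each applies: DESeq2, limma's voom, other scaling and count filters, no sex covariate, copies outside OCRs, autosomal copies and each library left out), and that of OCRs stayed 0 except in DESeq2, which called 4. A replicate block, which treats equal numbers as pairs, also called 0 subfamilies, 0 copies and 0 OCRs; 329 IAP copies had an unadjusted p under 0.05 under it (5.03%, against 4.83% of all). The numbers were not taken as pairs, since deviations from the genotype mean over OCRs correlated at 0.61, 0.63, -0.31 and -0.47 for F1, F2, M1 and M2. Over all 16 pairs of a KO and a WT library, KO F1 and KO M1 correlated positively with WT F1 and WT M2. KO F2 and KO M2 did so with WT F2 and WT M1 (0.27 to 0.63 over both sets), and the other pairs correlated negatively. The deviations of a genotype sum to 0 at each OCR, so positive correlations of a library force negative ones, whatever the libraries share. What these libraries share was not tested. The KO minus WT difference in the IAP share of retrotransposon counts ranged from -0.0102 (without KO M2) to 0.253 percentage points over the libraries left out, that in the share of ERVK counts from -0.174 (without KO M2) to 1.68, and that in the log2 ratio of internal to LTR counts from -0.00964 (without WT M1) to 0.193. The exact p-values of these 3 under the block were 0.75, 0.75 and 0.25. The proviral against solitary LTR log2 ratio moved to -0.0200 outside OCRs and to -0.0339 without chromosome Y, and the cause was not tested. Leaving out chromosome Y or the IAPEY4 subfamilies and matching LTRs by copy number were chosen after seeing the data. Without the IAPEY4 subfamilies the LTR over internal log2 density was 0.46, the proviral ratio -0.20 and the ratio to other ERVK -0.69. Without chromosome Y the LTR over internal log2 density was 0.51 and the ratio to other ERVK -0.41.

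Some log2 folds that had not passed the test changed sign. In limma's voom, IAPEz-int was -0.0548, IAPLTR2_Mm -0.121, IAPLTR1_Mm -0.142 and IAPLTR1a_Mm -0.0937, and with scaling factors from retrotransposons IAPLTR2_Mm was -0.00527. Over the libraries left out, IAPEz-int ranged from -0.144 (without KO M2) to 0.414, IAPEY3-int from -0.0484 (without KO M2) to 0.453, IAPLTR2_Mm from -0.112 (without KO M2) to 0.181, IAPLTR1_Mm from -0.136 (without KO M2) to 0.253, IAPLTR1a_Mm from -0.140 (without KO M2) to 0.336 and IAPEY4_LTR from -0.209 to 0.00555 (without WT F2). The named IAPEY4_LTR copy on chromosome 16 ranged from -0.203 to 0.0513 (without WT M1, and also above 0 without WT F2), the IAPLTR2_Mm copy on chromosome 17 from -0.0344 (without WT F1) to 0.129, with -0.0188 in DESeq2, and the IAPEY4_I copy on X from -0.356 to 0.0151 (without KO M2).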
